A study of Mus musculus with 14 samples.

Results

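Primary mouse cortical neuron cultures treated with bicuculline were compared with cultures treated with PK-cleaved peptides, 3 libraries of each, which are 6 of the 14 libraries of the series. The 6 libraries were chosen by their labelled treatment and not by any measured value. All cultures came from wild-type C57BL/6 mice and were treated for 1 h after 12 days in vitro. The bicuculline group received 20 µM bicuculline. The PK-cleaved group received, at 4% by volume, purified peptides released by the neuronal membrane proteasome (NMP, a proteasome at the neuronal plasma membrane) that had been cut with proteinase K. No peptide preparation is named for the bicuculline group and no solvent is named for either group, so a drug effect, a preparation effect and a solvent effect cannot be told apart. The other groups were uncleaved NMP peptides at 4% (3 libraries), the same peptides with 100 µM of the NMDA receptor blocker APV (3 libraries), and 1% DMSO (2 libraries). The comparison sets the response to network activation against a control that received the digested form of the peptide preparation.

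Bicuculline blocks GABA-A receptors, the chloride channels through which inhibitory neurons silence their targets, and in cultured cortical networks its addition gives synchronous bursts of firing. Firing opens NMDA receptors and voltage-gated calcium channels, and the calcium that enters activates CaM kinases and the MAP kinase cascade. These act on transcription factors already present in the cell, such as CREB, SRF and MEF2, which switch on immediate-early genes without new protein synthesis. Many immediate-early genes encode transcription factors of the AP-1, Egr, Nr4a and Npas4 type. Others encode synaptic proteins, or phosphatases and other inhibitors that shut the signal down again.

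Most of the genes called higher in bicuculline-treated cultures, 42 of 58, stood in the lists of activity genes, and no gene was called lower. These lists hold immediate-early factors and feedback genes among others, and 119 of the 10877 tested genes stood in them. They were chosen with earlier results of these data known, so the overlap is a description and not independent support. The limma test called 58 of 10877 genes higher, 0.533% of those tested, and 0 lower, 0%, at a Benjamini-Hochberg adjusted p under 0.05 over all tested genes. At an unadjusted p under 0.05, 266 genes were higher and 102 lower. Levels are quantile-normalised log2 signals, so a difference of 1 is a 2-fold change. The called genes had a median difference of 1.33 on the log2 scale, or 2.52-fold, against 0.0059 over all tested genes. Of the 58, 43 were more than 2-fold higher, 19 more than 4-fold and 9 more than 8-fold, while 4 were less than 1.5-fold higher. No gene was lower by more than 2-fold at any p. All 58 had every bicuculline library above every PK-cleaved library, which held upward for 4.16% and downward for 2.45% of all tested genes. With 3 libraries a side, an exact two-sided permutation test of a single gene cannot give a p below 0.1. The calls therefore rest on the spread that limma estimates. It combines each gene's own spread within all 5 groups (9 residual degrees of freedom) with that of other genes (5.05 prior degrees of freedom). With only the compared groups fitted, 44 of the 58 were called.

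**Figure D1:**
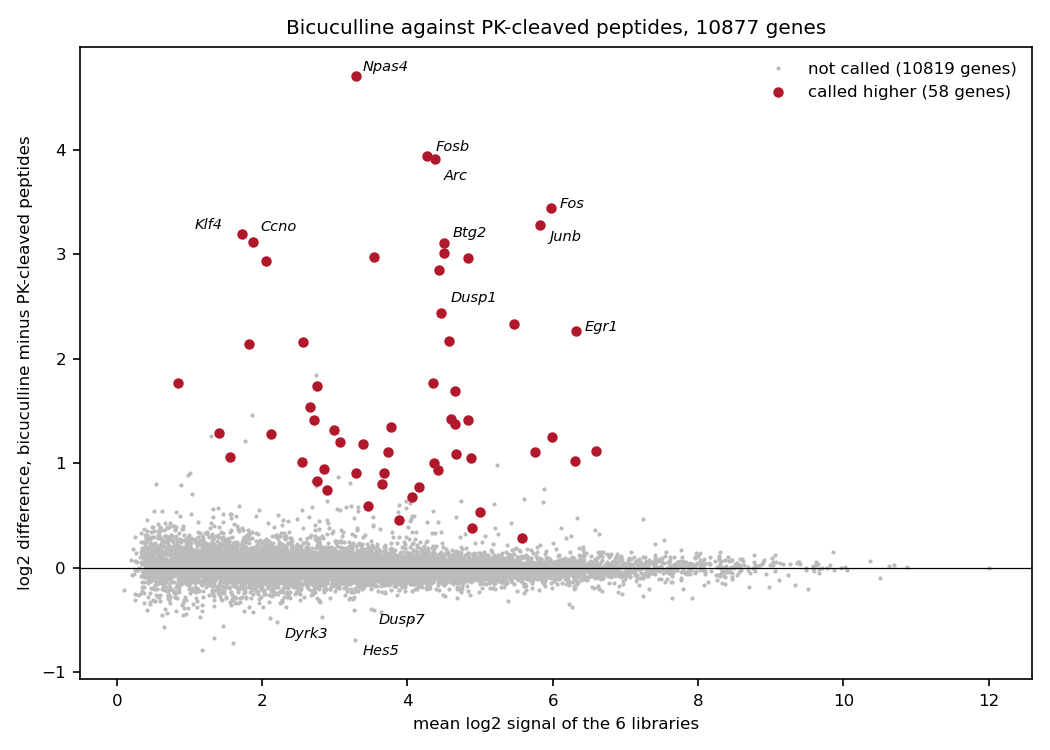
Log2 difference of bicuculline minus PK-cleaved peptides (vertical axis) against the mean log2 signal of the 6 libraries (horizontal axis), 1 point per tested gene. The 58 called genes (large red points) all lie above 0, led by Npas4 at 4.71, and no point lies below -1.

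Markers of cortical neurons were expressed in all 6 libraries, and so were those of astrocytes and the oligodendrocyte lineage. The summed linear signal of 9 excitatory neuron markers was 477 to 499 with bicuculline and 454 to 516 with PK-cleaved peptides, and that of 11 inhibitory neuron markers was 278 to 317 and 288 to 298. Astrocyte markers (10 genes) summed to 377 to 409 with bicuculline and 361 to 392 with PK-cleaved peptides, and 10 oligodendrocyte lineage markers to 128 to 151 and 141 to 144. Microglia markers summed to 1.05 to 1.88 with bicuculline and 1.14 to 1.26 with PK-cleaved peptides. Single microglia markers were very low and had missing values in both groups. Tmem119 had no value in the 3 PK-cleaved libraries and bicuculline replicate 1, and -4.62 and -3.55 in bicuculline replicates 2 and 3. P2ry12 had -4.73, -3.79 and -3.80 with PK-cleaved peptides, but with bicuculline a value only in replicate 2 (-4.37). The myelin gene Mog had no value in any of the 6. None of the 47 tested cell type and proliferation markers was called, which is near the share of all tested genes (0.533% higher and 0% lower). In bulk RNA, fewer cells of a type and less RNA per cell cannot be told apart.

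In each group 1 library was the highest for Gfap and Col3a1. Gfap, an intermediate filament gene of astrocytes, was 2.67, 4.18 and 3.47 in bicuculline replicates 1 to 3, against 2.45, 2.15 and 3.97 in PK-cleaved replicates 1 to 3. Col3a1, a fibrillar collagen gene of fibroblasts, was -5.14, -1.40 and -5.92 with bicuculline, against -5.03, -5.90 and -0.57 with PK-cleaved peptides. Bicuculline replicate 2 and PK-cleaved replicate 3 were thus the high libraries for both genes, and the groups overlapped. Other astrocyte and fibroblast markers did not all follow. The fibroblast gene Dcn did, with 2.92, 3.62 and 2.82 in bicuculline replicates 1 to 3 and 3.03, 2.77 and 3.42 in PK-cleaved replicates 1 to 3. Another fibroblast gene, Lum, was highest in bicuculline replicate 1 (-1.56, -1.80 and -2.31), though in PK-cleaved replicate 3 (-3.23, -1.75 and -1.64). The astrocyte gene Aqp4 was lowest in bicuculline replicate 2 (3.17, 3.01 and 3.22) and PK-cleaved replicate 3 (3.19, 3.28 and 3.07). Without these 2 libraries, 51 genes were called higher and 0 lower, 49 of them among the 58. The other 9 of the 58 missed the threshold there, namely Adrb1, Col5a1, Fosl2, Nppc, Per1, Pnrc1, Slc2a1, Tob1 and Tsc22d1. The whole fibroblast list (6 genes) summed to 9.40 to 17.7 with bicuculline and 9.50 to 15.7 with PK-cleaved peptides.

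**Figure D2:**
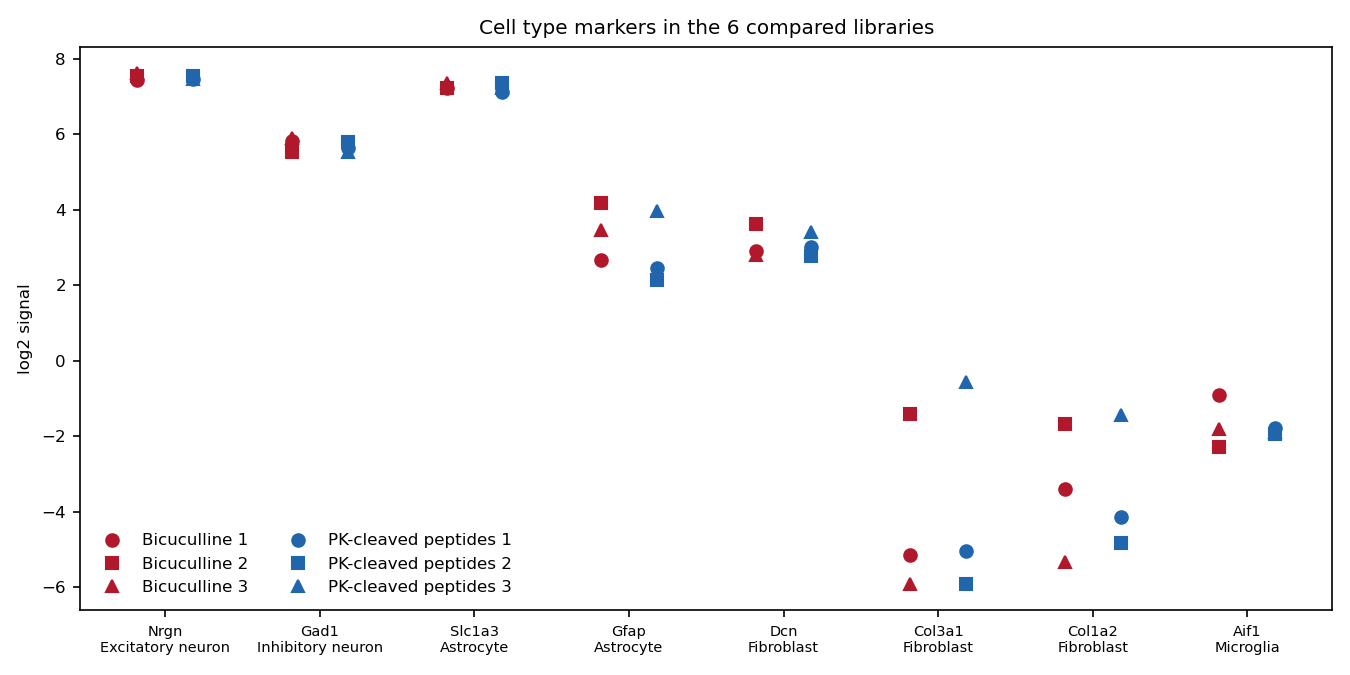
Log2 signal (vertical axis) of 8 cell type markers (horizontal axis) in the 3 bicuculline libraries (red, left) and the 3 PK-cleaved libraries (blue, right), with a symbol for each replicate number. The neuronal markers Nrgn and Gad1 and the astrocyte marker Slc1a3 are close in all 6 libraries, while Gfap and the collagen genes are high in bicuculline replicate 2 and PK-cleaved replicate 3.

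Npas4 gave the largest difference of all tested genes. It encodes a neuronal transcription factor that responds to calcium entry and is known for tuning inhibitory synapses (chromosome 19, 4984353 to 5003439). Its log2 signal was 5.73, 5.12 and 6.08 with bicuculline, against 1.21, 0.82 and 0.77 with PK-cleaved peptides. Every bicuculline library lay far above every PK-cleaved library. The difference was 4.71 (SE 0.27, limma adjusted p = 8.51e-07), or 26.1-fold.

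Arc, which encodes a capsid-like postsynaptic protein that takes part in AMPA receptor removal (chromosome 15, 74669081 to 74672570), was 6.65, 5.78 and 6.57 with bicuculline, against 2.81, 2.62 and 1.85 with PK-cleaved peptides. The difference was 3.91 (SE 0.34, limma adjusted p = 2.07e-05). Fos, an AP-1 subunit (chromosome 12, 85473890 to 85477274), was 7.80, 7.28 and 8.02 with bicuculline, against 4.57, 4.29 and 3.90 with PK-cleaved peptides. The groups were far apart for both genes, and bicuculline replicate 2 was the lowest of its group in each. The Fos difference was 3.45 (SE 0.25, limma adjusted p = 2.69e-06), or 10.9-fold. Fos had the highest mean among the called genes with bicuculline (7.70 ± 0.38, SD, n = 3), where the 58 means ran from 1.73 to 7.70.

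**Figure D3:**
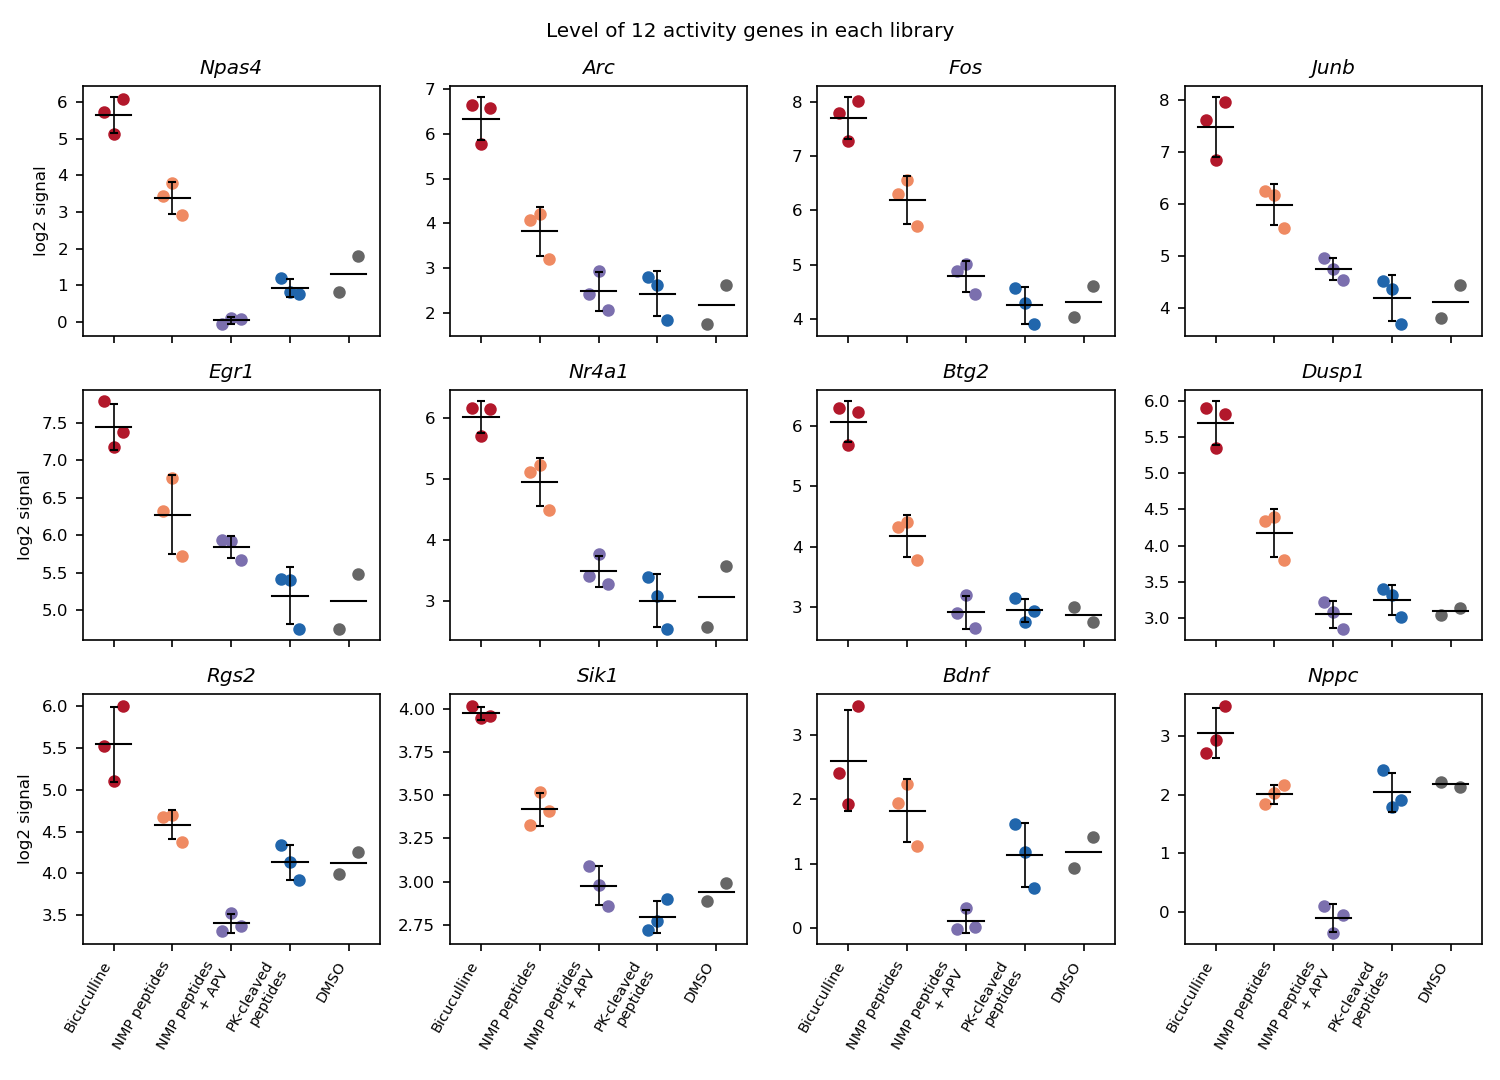
Log2 signal (vertical axes) of 12 activity genes in every library, by treatment (horizontal axes). Points are libraries, long bars are group means and error bars are the SD for groups of 3. In each of these genes the 3 bicuculline libraries lie above the 3 PK-cleaved libraries, and the PK-cleaved and DMSO means lie close together.

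Promoter windows of Btg2, Dusp1 and Egr2 are shown. Among the called genes with a window, these had the largest differences of those that held a full site for CREB or SRF. Both factors are known from activity-dependent transcription. They are RefSeq sequences of GRCm38.p6, from 250 bases before to 50 bases after a transcription start, written 5′ to 3′ on the gene's strand. The windows are chr1:134079106-134079405 (minus strand) for Btg2, chr17:26508423-26508722 (minus strand) for Dusp1, and chr10:67537316-67537615 (plus strand) for Egr2, which is 1 of 5 windows of that gene. Capitals mark the full cAMP response element TGACGTCA, the site that CREB binds, in Btg2 and Dusp1, and a CArG box, the site that SRF binds, in Egr2.
Btg2: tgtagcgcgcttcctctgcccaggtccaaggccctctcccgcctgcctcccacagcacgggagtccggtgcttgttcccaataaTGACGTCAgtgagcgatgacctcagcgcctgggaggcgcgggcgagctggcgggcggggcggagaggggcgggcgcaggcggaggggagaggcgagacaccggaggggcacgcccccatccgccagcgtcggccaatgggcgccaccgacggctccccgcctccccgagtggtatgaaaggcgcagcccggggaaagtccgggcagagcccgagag
Dusp1: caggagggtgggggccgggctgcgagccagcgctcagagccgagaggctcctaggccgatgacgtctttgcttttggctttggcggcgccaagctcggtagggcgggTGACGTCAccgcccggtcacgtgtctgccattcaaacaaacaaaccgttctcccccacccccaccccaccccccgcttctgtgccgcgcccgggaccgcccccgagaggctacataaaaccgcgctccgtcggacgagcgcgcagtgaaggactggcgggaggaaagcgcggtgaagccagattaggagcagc
Egr2: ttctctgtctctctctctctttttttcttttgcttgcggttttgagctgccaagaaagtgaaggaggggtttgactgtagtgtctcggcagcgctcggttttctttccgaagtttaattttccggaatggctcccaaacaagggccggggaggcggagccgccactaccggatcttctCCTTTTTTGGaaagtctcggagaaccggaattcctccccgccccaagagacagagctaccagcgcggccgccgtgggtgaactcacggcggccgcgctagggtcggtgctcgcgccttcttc
The element begins 166 bases before the start in Btg2, 143 in Dusp1 and 72 in Egr2.

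Of the 58 called genes, 50 had a window, as had 8719 of all tested genes, and motifs were searched on both strands. Arc, Egr1, Egr3, Ier2, Trib1, Sik1, Klf5 and Gm13889 had no window, so the shares below leave them out. The full element TGACGTCA was found in 6 of the 50 (12%), against 3.90% of tested genes with a window and 1.79% of all 32851 windows. The other 4 genes with it were Maff, Arl4d, Plk2 and Errfi1. Its first 5 bases, TGACG, which the full element also holds, were in 32 of the 50 (64%), against 37.5% of tested genes and 20.8% of all windows. The letters TATAAA, a form of the TATA box, were in 14 (28%), against 7.96% and 13.6%, and a CArG box was in 2 (4%), against 1.54% and 1.63%. The AP-1 site TGANTCA was in 0 of the 50, against 5.32% and 7.81%. These are matches of letters within 300 bases and show no binding. A gene with several windows was counted once if any held the motif.

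The called genes were short. Their median length from first to last annotated base was 6.20 kb, against 25.04 kb over the 10827 tested genes with a position. Genes under 5 kb made up 24 of the 58 (41.4%), against 10.9% of all, and genes over 50 kb made up 2 (3.45%, Col5a1 and Tsc22d1), against 30.0%. Their starting level was ordinary, with a median log2 signal with PK-cleaved peptides of 3.17, against 3.29 over all tested genes.

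The gene lists used below hold known activity genes in 8 groups, and were chosen with earlier results of these data known. Of their 138 genes 119 were tested, and 42 were called higher and 0 lower, against 0.533% and 0% of all tested genes. The median difference over the 119 was 0.48 on the log2 scale, and in 67 of them (56.3%) all bicuculline libraries lay above all PK-cleaved libraries. The other 19 listed genes had a level too low for the test or no value.

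**Figure D4:**
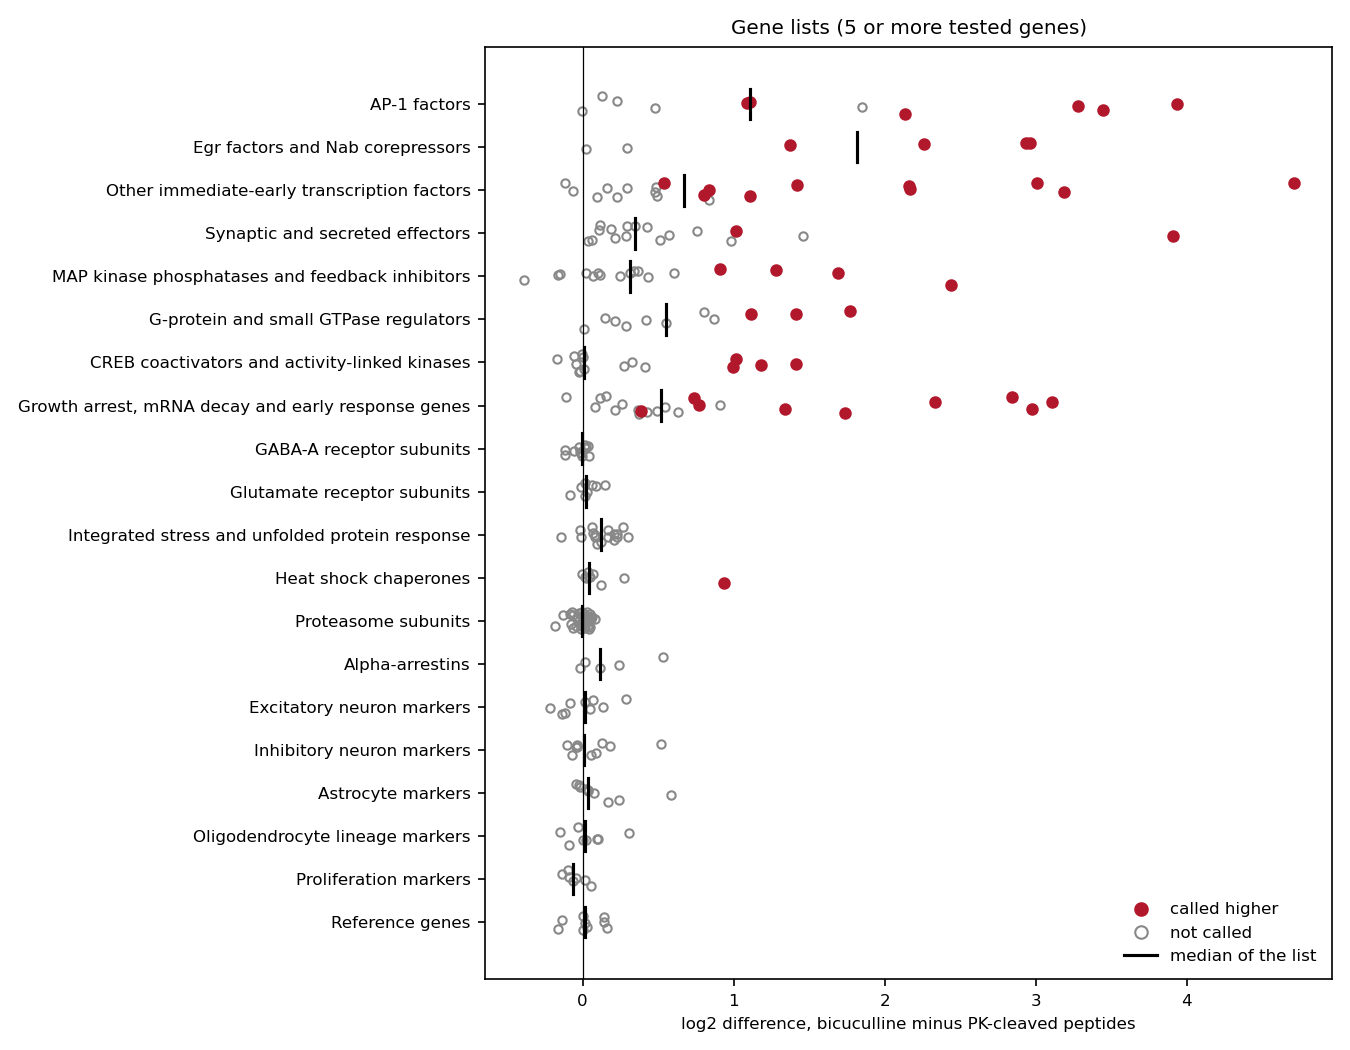
Log2 difference of bicuculline minus PK-cleaved peptides (horizontal axis) for the tested genes of each list with 5 or more tested members (rows). Filled red points were called higher, open points were not called, and the black bar is the list's median. The called genes lie in the 8 activity lists, apart from Dnajb1 among the heat shock chaperones.

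AP-1 factors are dimers of Fos and Jun family proteins that bind the TPA-response element. Of 11 tested genes 6 were called higher, and the median difference was 1.11. Fosb (chromosome 7, 19302696 to 19310118) was 6.27, 5.52 and 6.90 with bicuculline, against 2.72, 2.38 and 1.80 with PK-cleaved peptides, a difference of 3.93 (SE 0.35, limma adjusted p = 2.09e-05). Junb (chromosome 8, 84976909 to 84978748) was 7.61, 6.84 and 7.96 with bicuculline, against 4.52, 4.37 and 3.69 with PK-cleaved peptides, a difference of 3.28 (SE 0.28). Neither gene's groups overlapped, and bicuculline replicate 3 was the highest library in both. Maff, a small Maf protein gene, was 4.40-fold higher, Jun 2.16-fold and Fosl2 2.13-fold. Jund, a family member present at a high level without stimulation, had 6.52, 6.45 and 6.77 with bicuculline and 6.18, 6.04 and 6.08 with PK-cleaved peptides, and its difference of 0.48 was not called (SE 0.13, limma adjusted p = 0.297). Atf3 had the largest uncalled difference of the list, 1.85 (SE 0.48, limma adjusted p = 0.191), with 3.27, 3.01 and 4.71 with bicuculline and 2.34, 1.48 and 1.63 with PK-cleaved peptides. It was called in 2 of 17 alternative settings, over which its adjusted p ran from 0.0104 to 0.9999. Mafg, a small Maf gene of steady level, was 3.86, 3.87 and 3.88 with bicuculline and 3.71, 3.75 and 3.77 with PK-cleaved peptides and was not called. Fosl2 missed the threshold without bicuculline replicate 3 (adjusted p = 0.069) and without PK-cleaved replicate 1 or 2 (0.112 and 0.0821), and its adjusted p ran from 0.00046 to 0.112 over 17 alternative settings.

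Egr proteins are zinc-finger factors induced through SRF and its partners, and Nab proteins are their corepressors. All 4 Egr genes were called and neither Nab gene was, with a list median of 1.82. Egr4 was 6.43, 5.58 and 6.96 with bicuculline, against 3.84, 3.57 and 2.66 with PK-cleaved peptides, a 7.80-fold change. Egr2 was 3.72, 3.08 and 3.77 with bicuculline, against 0.77, 0.79 and 0.20 with PK-cleaved peptides, a 7.65-fold change. Egr1 was 7.79, 7.18 and 7.38 with bicuculline, against 5.42, 5.40 and 4.75 with PK-cleaved peptides, a 4.79-fold change. The groups were apart in all 3 genes, while Egr1 began from a level that Egr2 did not reach with bicuculline. Egr3 was 2.59-fold higher. Nab1 had a difference of 0.02 (SE 0.10) and Nab2 of 0.29 (SE 0.15), each with a limma adjusted p of 1. Egr2 shares its locus with the annotated gene Gm32255, as 12 of the 58 called genes overlap another annotated gene, among them Nr4a2, Dusp6, Sik1 and Tiparp. Whether counting used strand is not stated, so reads of such neighbours cannot be told apart.

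Other immediate-early transcription factors gave 10 called genes of 20 tested, with a median of 0.67. Klf4, a Krüppel-like factor (chromosome 4, 55527137 to 55532475), was 3.39, 2.76 and 3.80 with bicuculline, against 0.41, 0.10 and -0.13 with PK-cleaved peptides, a 9.13-fold change. Nr4a1, an orphan nuclear receptor, was 6.17, 5.71 and 6.15 with bicuculline, against 3.39, 3.07 and 2.54 with PK-cleaved peptides, an 8.05-fold change. The libraries of the groups were well apart for both. Its relatives Nr4a2 and Nr4a3 were 4.47-fold and 2.68-fold higher, and all 3 members of the Nr4a family were thus called. Ier2 was 4.49-fold higher and Nfil3, a bZIP repressor, 2.16-fold. Smaller changes were called for Klf5 (0.83), the clock gene Per1 (0.81) and Klf6 (0.54, SE 0.07), each on the log2 scale. Klf6 was called in 16 of 17 alternatives (adjusted p from 0.000142 to 0.0633). Klf9, a hormone-responsive factor (0.49, SE 0.19), and Myc (0.30) were not called. Klf5 was called in 7 of 17 alternative settings (adjusted p from 0.00255 to 0.283), with an adjusted p of 0.209 and 0.283 without bicuculline replicates 1 and 3 and of 0.152 and 0.269 without PK-cleaved replicates 1 and 3. Per1 was called in 10 of 17 (adjusted p from 0.013 to 0.182), with an adjusted p of 0.12 without bicuculline replicate 3 and of 0.0792, 0.13 and 0.182 without PK-cleaved replicates 1 to 3.

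Synaptic and secreted effectors responded in few members at 1 h. Of 17 tested genes 2 were called, Arc and Nppc, although all 17 differences were above 0 and the median was 0.35. Nppc, the gene of C-type natriuretic peptide, was 2.71, 2.93 and 3.52 with bicuculline, against 2.42, 1.79 and 1.91 with PK-cleaved peptides, a 2.02-fold change (limma adjusted p = 0.0345). Bdnf, which encodes a neurotrophin, was 2.41, 1.93 and 3.45 with bicuculline, against 1.61, 1.18 and 0.62 with PK-cleaved peptides. Neither gene's groups overlapped, but the Bdnf bicuculline libraries were spread over more than 1 log2 unit. The Bdnf difference of 1.46 (SE 0.34) was not called (limma adjusted p = 0.122, and 0.0135 to 0.569 over the alternatives). It was called without bicuculline replicate 2 (adjusted p = 0.0275) and with array weights (0.0135). Scg2, which encodes a secretory granule protein, had a difference of 0.76 (SE 0.18, limma adjusted p = 0.126), and it too was called without bicuculline replicate 2 (0.0344, range 0.0344 to 0.558). Nppc was called in 7 of the 16 alternatives that tested it (adjusted p from 0.00726 to 0.274), and its adjusted p was 0.0622 and 0.164 without bicuculline replicates 2 and 3 and 0.208 and 0.202 without PK-cleaved replicates 2 and 3. Sst, the somatostatin gene and the most abundant of the list, was 8.29, 8.33 and 8.41 with bicuculline and 8.24, 8.14 and 8.33 with PK-cleaved peptides, and was not called. Homer1, the scaffold gene whose short isoform is activity-induced, was 3.50, 3.45 and 3.91 with bicuculline and 3.32, 3.48 and 3.42 with PK-cleaved peptides. Its signal covers all isoforms together, and its difference of 0.21 was not called.

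MAP kinase phosphatases and feedback inhibitors end the signal that induces the early genes. Of 17 tested genes 4 were called higher, with a list median of 0.31. Dusp1, a nuclear phosphatase of MAP kinases (chromosome 17, 26505591 to 26508472), was 5.90, 5.35 and 5.82 with bicuculline, against 3.41, 3.32 and 3.02 with PK-cleaved peptides, a difference of 2.44 (SE 0.17, limma adjusted p = 2.17e-06). Dusp6, a cytoplasmic ERK phosphatase, was 5.80, 5.22 and 5.48 with bicuculline, against 4.05, 3.86 and 3.52 with PK-cleaved peptides, a 3.23-fold change. Both genes were lowest of the bicuculline group in replicate 2, and both pairs of groups were apart by more than 1 log2 unit. Dusp5, a nuclear ERK phosphatase, was 2.43-fold higher and Errfi1, an inhibitor of the EGF receptor, 1.88-fold. The ERK antagonist gene Spry2 (0.43, limma adjusted p = 0.124) was not called, although it was with array weights (adjusted p = 0.0104, range 0.0104 to 0.597), and Dusp8, a phosphatase directed at stress kinases, had a difference of 0.11. Dusp7 lay lower in every bicuculline library, at 3.36, 3.41 and 3.16, than in every PK-cleaved library, at 3.64, 3.82 and 3.63, and its difference of -0.39 was not called (SE 0.10, limma adjusted p = 0.158). Dusp5 missed the threshold without bicuculline replicate 1 or 3 (adjusted p = 0.0812 and 0.069) and without PK-cleaved replicate 3 (0.075), and ran from 0.00102 to 0.0812 over the alternatives.

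G-protein and small GTPase regulators gave 3 called genes of 11, with a median of 0.55 and all 11 above 0. Arl4d, a small GTPase of the ARF family, was 5.29, 4.69 and 5.74 with bicuculline, against 3.69, 3.26 and 3.47 with PK-cleaved peptides, a 3.40-fold change. Rgs2, which speeds GTP hydrolysis by Gq, was 5.52, 5.11 and 6.01 with bicuculline, against 4.34, 4.14 and 3.92 with PK-cleaved peptides, a 2.66-fold change. The groups of neither gene overlapped. Rgs4 was 2.16-fold higher and had the highest starting level of all called genes, 6.04 ± 0.21 with PK-cleaved peptides (SD, n = 3). Rhob and Rheb, abundant GTPase genes, had differences of 0.01 and 0.15 and were not called. Rgs4 missed the threshold without bicuculline replicate 1 (adjusted p = 0.0555) and without PK-cleaved replicate 3 (0.075), and ran from 0.000186 to 0.0789 over the alternatives.

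CREB coactivators and activity-linked kinases carry the signal between calcium and transcription. Of 15 tested genes 4 were called higher, all encoding kinases or a pseudokinase: Trib1 (2.66-fold), Sik1 (2.27-fold), Plk2 (2.02-fold) and Pim3 (2.00-fold). The list median was 0.01. Sik1, which encodes a salt-inducible kinase that restrains CREB coactivators, was 4.02, 3.95 and 3.96 with bicuculline, against 2.72, 2.77 and 2.90 with PK-cleaved peptides. Its libraries were the tightest of the called genes with a change over 2-fold apart from Col5a1, with an SD of 0.038 with bicuculline, and its difference was 1.18 (SE 0.08, limma adjusted p = 2.17e-06). Plk2, a polo-like kinase involved in synaptic scaling, was 6.79, 6.57 and 7.07 with bicuculline, against 5.80, 5.80 and 5.79 with PK-cleaved peptides. The coactivator gene Crtc1 had a difference of -0.02 and the kinase gene Camk1g of 0.00, and neither was called. Pim3 missed the threshold without PK-cleaved replicate 3 (adjusted p = 0.054, range 0.000623 to 0.054 over the alternatives).

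Growth arrest, mRNA decay and early response genes gave 9 called genes of 22, with a median of 0.52. Btg2, an antiproliferative gene that recruits the CCR4-NOT deadenylase (chromosome 1, 134074865 to 134079155), was 6.29, 5.68 and 6.22 with bicuculline, against 3.15, 2.76 and 2.94 with PK-cleaved peptides. Its difference of 3.11 (SE 0.19) had the second smallest p of all genes (limma adjusted p = 8.79e-07). Gadd45b, which takes part in DNA demethylation in neurons, was 5.03, 4.54 and 5.49 with bicuculline, against 2.67, 1.84 and 1.63 with PK-cleaved peptides, a 7.88-fold change. Cyr61, a secreted matrix protein gene, was 6.46, 5.47 and 5.64 with bicuculline, against 3.23, 3.02 and 2.78 with PK-cleaved peptides, a 7.18-fold change. The groups were apart by more than 1 log2 unit in these 3 genes, and Cyr61 was highest in replicate 1 of each group. Gadd45g was 5.04-fold higher, the ubiquitin ligase adaptor Fbxo33 3.33-fold and the poly-ADP-ribose polymerase Tiparp 2.54-fold. The antiproliferative genes Tob1 and Tob2 were 1.71-fold and 1.67-fold higher, and Mcl1, a survival gene of the Bcl-2 family, 1.31-fold. Tob1 was called in 16 of 17 alternatives, and missed the threshold without the highest-Gfap library of each group (adjusted p = 0.092, range 0.000252 to 0.092). Cdkn1a, which encodes the p21 cell cycle inhibitor, was 5.43, 5.71 and 5.80 with bicuculline and 5.28, 5.15 and 5.23 with PK-cleaved peptides, and lay just outside the threshold (0.43, SE 0.09, limma adjusted p = 0.0591). It was called without bicuculline replicate 1 (adjusted p = 0.00672, range 0.00672 to 0.508). Ppp1r15a, a phosphatase 1 regulator, had a difference of 0.63 and was not called. Mcl1 missed the threshold without bicuculline replicate 3 (0.0516, range 0.00168 to 0.38 over the alternatives).

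Of the 58 called genes, 15 stood in none of the lists. Ccno, a cyclin O gene without overlapping annotation, was 3.53, 2.58 and 4.20 with bicuculline, against 0.98, 0.37 and -0.41 with PK-cleaved peptides, an 8.69-fold change. Its groups were apart, but its SE of 0.45 was the largest among the called genes. Adamts1, a secreted protease gene, was 3.37, 2.98 and 3.92 with bicuculline, against 1.79, 2.07 and 1.80 with PK-cleaved peptides, a 2.90-fold change. Adrb1, the beta-1 adrenergic receptor gene, was 3.37, 3.19 and 3.40 with bicuculline, against 2.56, 2.41 and 2.15 with PK-cleaved peptides, a 1.92-fold change. Spty2d1 was 2.50-fold higher, Itprip 2.45-fold, the deubiquitinase gene Otud1 2.31-fold, the collagen gene Col5a1 2.09-fold and the CBP/p300 binding protein gene Cited2 2.06-fold. Erf, an ETS repressor downstream of ERK, was 1.60-fold higher and Pnrc1 1.38-fold. The other 5 are named here after their values were seen: the growth factor gene Fgf5 (3.41-fold), the predicted gene Gm13889 (2.38-fold), the insulin receptor substrate gene Irs2 (1.87-fold), the glucose transporter gene Slc2a1 (1.51-fold, limma adjusted p = 0.0496) and Tsc22d1 (1.22-fold). Fgf5 had low means outside bicuculline: -0.28 with DMSO, 0.73 with NMP peptides, 0.17 with these plus APV and -0.04 with PK-cleaved peptides. Its mean with bicuculline was 1.73. The level filter used all libraries, and Fgf5 passed it only through its bicuculline values. Its call is therefore given as a description.

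Of these 15 genes, 10 lost their call when 1 library was left out. Without bicuculline replicate 1 the adjusted p was 0.0603 for Otud1, 0.051 for Col5a1, 0.068 for Erf, 0.068 for Pnrc1, 0.125 for Fgf5, 0.0717 for Gm13889, 0.136 for Irs2, 0.129 for Slc2a1 and 0.068 for Tsc22d1. Without bicuculline replicate 3 it was 0.101 for Erf, 0.146 for Fgf5, 0.0734 for Gm13889, 0.205 for Irs2, 0.298 for Slc2a1 and 0.146 for Tsc22d1. Without PK-cleaved replicate 1 it was 0.0521 for Col5a1, 0.113 for Irs2, 0.249 for Slc2a1 and 0.0772 for Tsc22d1. Without PK-cleaved replicate 2 it was 0.0703 for Itprip, 0.0553 for Otud1, 0.0821 for Erf, 0.0837 for Pnrc1, 0.0884 for Fgf5, 0.0553 for Gm13889 and 0.0926 for Tsc22d1. Without PK-cleaved replicate 3 it was 0.0627 for Itprip, 0.087 for Otud1, 0.118 for Erf, 0.0565 for Pnrc1, 0.155 for Fgf5, 0.104 for Gm13889, 0.0734 for Irs2, 0.209 for Slc2a1 and 0.0645 for Tsc22d1. Over the alternatives the adjusted p of Slc2a1 ran from 0.0161 to 0.298, that of Irs2 from 0.00547 to 0.205, that of Fgf5 from 0.000794 to 0.155, that of Pnrc1 from 0.00193 to 0.219 and that of Tsc22d1 from 0.00942 to 1. Those of Itprip, Gm13889, Otud1, Col5a1 and Erf reached at most 0.137. Ccno, Adamts1, Spty2d1, Cited2 and Adrb1 kept their calls without each library in turn, but Adrb1 missed the threshold without the highest-Gfap library of each group (adjusted p = 0.0563, range 0.000303 to 0.0563).

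Some early genes had levels too low for the test. Ptgs2, which encodes the cyclooxygenase COX-2, was 1.01, -0.07 and 2.05 with bicuculline, against -3.12, -3.17 and -2.27 with PK-cleaved peptides. Fosl1, another AP-1 subunit, was -0.09, -0.70 and 0.90 with bicuculline, against -1.85, -2.58 and -2.93 with PK-cleaved peptides. The groups of both were apart. With no filter on level, 64 genes were called, 57 of them among the 58, and the 7 others were Ptgs2 (3.85, SE 0.43), Fosl1 (2.49, SE 0.47), C2cd4b (2.28), Hic1 (1.93), Csrnp1 (1.59), Nfkbiz (1.49) and Nfkbid (1.48), all higher on the log2 scale.

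Genes of the receptor that bicuculline blocks were not called. All 12 GABA-A receptor subunit genes were tested, 0 were called, and their differences ran from -0.12 to 0.04, with 95% confidence intervals within -0.44 to 0.41. Gabra5, an alpha subunit gene, had the smallest p among them, with 5.38, 5.24 and 5.29 with bicuculline and 5.45, 5.53 and 5.28 with PK-cleaved peptides. Of 8 tested glutamate receptor subunit genes 0 were called, with a median of 0.03. Over all tested genes 0.533% were called higher and 0% lower, so 0 calls in lists this small is near that share. Both lists had overlapping groups in every tested gene. Over all tested genes the groups stood apart upward in 4.16% and downward in 2.45%, so this too is near the general share.

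Stress and protein-degradation genes gave 1 call. Among 10 heat shock chaperone genes Dnajb1, an Hsp40 co-chaperone, was 5.08, 4.54 and 5.04 with bicuculline, against 4.02, 4.02 and 3.81 with PK-cleaved peptides, a 1.92-fold change (limma adjusted p = 0.00113). The list's other 9 genes were not called, and its median was 0.05. Of 17 genes of the integrated stress and unfolded protein response 0 were called, with a median of 0.12. All 35 proteasome subunit genes were tested and 0 were called, with differences from -0.18 to 0.09 and confidence intervals within -0.39 to 0.34. Of 5 alpha-arrestin genes 0 were called. Txnip, a glucose-sensing member of that list, was 3.74, 4.62 and 4.04 with bicuculline and 3.24, 3.32 and 4.24 with PK-cleaved peptides, so that its groups overlapped. Of 15 interferon and inflammatory genes 2 were tested and 0 were called. Over all tested genes 0.533% were called higher and 0% lower, so the counts of 0 in these lists are near that share.

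With predicted gene models and date-like names left out, the 5 smallest p-values among genes lower with bicuculline were those of Dyrk3, Dusp7, Slc35f4, Chrac1 and Hes5. Dyrk3, a dual-specificity kinase gene, was 2.05, 2.07 and 1.72 with bicuculline, against 2.60, 2.47 and 2.34 with PK-cleaved peptides (difference -0.52, SE 0.11, limma adjusted p = 0.0729). Hes5, a Notch target gene of neural progenitors, was 2.86, 2.84 and 3.11 with bicuculline, against 3.76, 3.60 and 3.52 with PK-cleaved peptides (difference -0.69, SE 0.19, adjusted p = 0.299). Both had every bicuculline library below every PK-cleaved library. Slc35f4 and Chrac1 had differences of -0.43 each, with adjusted p-values of 0.21 and 0.234. Hes5 was called lower when only the compared groups were fitted (adjusted p = 0.0265, range 0.0265 to 0.916 over the alternatives), and Slc35f4 without PK-cleaved replicate 3 (-0.57, adjusted p = 0.0177, range 0.0177 to 1).

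The called genes varied more between bicuculline libraries than between PK-cleaved libraries. Their median SD was 0.37 with bicuculline and 0.21 with PK-cleaved peptides, against 0.11 and 0.13 over all tested genes. The SD was larger with bicuculline in 47 of the 58, against 41.2% of all tested genes. Set against the PK-cleaved mean, their median was 1.30, 1.02 and 1.75 in bicuculline replicates 1 to 3, against 0.16, 0.0076 and -0.15 in PK-cleaved replicates 1 to 3. Bicuculline replicate 3 was the highest of its group for 43 of the genes and replicate 1 for 15, and replicate 2, one of the high-Gfap libraries, for 0. Among PK-cleaved libraries, replicate 1 was the highest for 39.

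**Figure D5:**
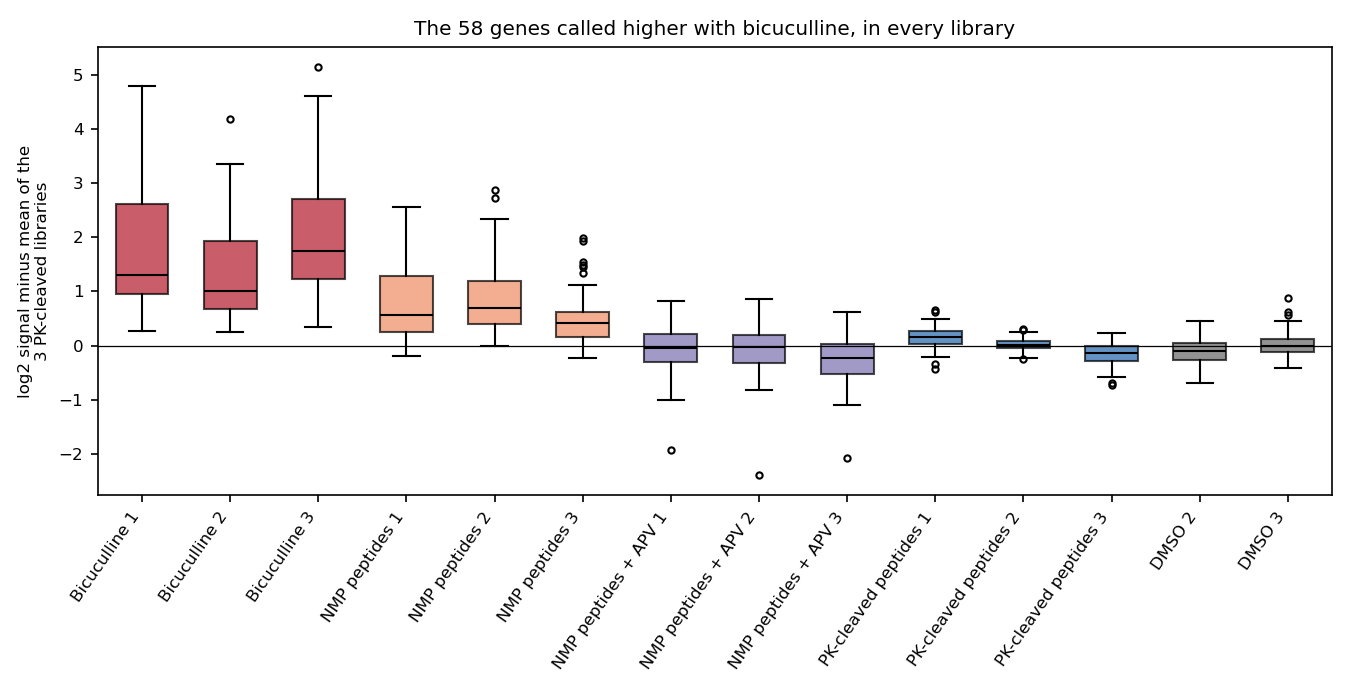
Log2 signal of the 58 called genes minus the mean of the 3 PK-cleaved libraries (vertical axis), as a box plot for each of the 14 libraries (horizontal axis). Boxes span the quartiles, the line is the median and whiskers reach 1.5 times the box. The bicuculline medians are 1.02 to 1.75 and the uncleaved peptide medians 0.41 to 0.69, while those of the other groups lie within 0.25 of 0.

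The remaining groups place both sides of the comparison. Against DMSO, the 58 genes had a median difference of 1.42 with bicuculline (range 0.23 to 4.33) and of 0.054 with PK-cleaved peptides (range -0.37 to 0.43), against medians of -0.034 and -0.037 over all tested genes. The first shares the bicuculline libraries and the second the PK-cleaved libraries with the choice of the 58, so these are descriptions. With PK-cleaved peptides 38 of the 58 lay above DMSO, against 34.0% of all tested genes. Npas4 had a mean of 5.64 with bicuculline, 3.39 with NMP peptides, 0.04 with NMP peptides plus APV, 0.93 with PK-cleaved peptides and 1.31 with DMSO. The bicuculline mean was the highest of the 5 groups in all 58 genes, a pattern that the choice of the genes favours.

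Uncleaved NMP peptides against DMSO use none of the bicuculline and PK-cleaved libraries. There, 57 of the 58 genes had a difference above 0, with a median of 0.56, against 35.3% of all tested genes and a median of -0.042. Nppc, at -0.17, was the exception. The NMP peptide and DMSO libraries did enter the level filter and the shared spread behind the 58 calls. With NMP peptides plus APV against DMSO, 26 of the 58 lay above 0, with a median of -0.023, against 36.3% of all tested genes and a median of -0.050. The lowest was Nppc, at -2.28. These comparisons share the DMSO libraries with each other, and no group that received APV alone was analysed here.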

How the data were processed

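Ribosome-depleted RNA was sequenced in pairs of 100-base reads, per the labels' protocols. The authors deposited one log2 signal per gene and library. Per the submitters' processing notes the reads were placed on GRCm38.p6; aligner, counter, annotation and use of strand are not given in the sources used. The 14 libraries have the same median (2.19) and the same maximum (12.0), a mark of quantile normalisation. Read depth is therefore unknown, no counting interval can be given, and differences in total RNA are lost. Antilogged values times exon length in kilobases summed to 1180000 to 1270000 per library with base 2, so levels are per length. Cells marked as missing carry no value.

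Of 45802 features, 18128 had a value; the lowest 40% by mean over all libraries were dropped, which left 10877 genes with no missing value, 21 of them under date-like names. One limma 3.58.1 model in R 4.3.3, with a mean for each of the 5 groups, a variance trend and empirical Bayes moderation, was fitted to all 14 libraries, and the two-sided contrast of bicuculline minus PK-cleaved peptides was adjusted by Benjamini-Hochberg. The procedure was tested on simulated data. Groups and columns followed the labels. What the biological replicates of the series design consist of is not stated, so the p-values cover only the spread among these libraries. The genes, lists and tests were chosen with earlier results of these data known. Named genes are 7 index genes, up to 10 called genes and the 2 most abundant uncalled genes per activity list. From each other list up to 4 called genes or the smallest p were named. Also named are the 10 highest called genes, 10 called genes outside the lists, and the 5 smallest p-values of a direction without calls. Predicted gene models and date-like names were left out of these. Genes called only in an alternative were added once their values had been seen. So were Atf3, Homer1, Ptgs2, Fosl1, Gfap, Col3a1, Dcn, Lum, Aqp4, Mog, Tmem119 and P2ry12. Positions and promoter windows are RefSeq's on GRCm38.p6. The 17 alternatives changed the filter, centring, samples fitted, replicate block, variance model or libraries; leaving out the highest-Gfap library of each group was chosen after seeing the data. The alternative on a pseudocount did not apply to log2 values.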

Additional observations from a re-analysis of the deposited data

How the results depend on the processing

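Over the 17 alternative settings, all tested members of the 58 stayed above 0. That was nearly fixed in advance, because in all 58 every bicuculline library lay above every PK-cleaved library. Leaving out or weighting libraries could therefore not reverse a difference. Of the 58, 37 were called in every setting that tested them. The number of called genes was 88 with array weights (86 higher, 2 lower, Dph2 and Zfp319, with all 58 among them), 64 with no filter, 44 with the lowest 60% dropped (all 44 of the 58 that were still tested), 56 with median centring, 48 when only the compared groups were fitted, 58 without the DMSO group, 54 without the variance trend and 58 with robust moderation. Leaving out 1 library gave 44 to 68: 51, 68 and 47 without bicuculline replicates 1 to 3, and 53, 48 and 44 without PK-cleaved replicates 1 to 3. The causes were not tested. No called gene changed sign, which the separation of their libraries made nearly certain. The near-zero differences of the uncalled Camk1g, Rhob, Nab1 and Crtc1 did change sign under some settings (Camk1g and Rhob with median centring, for example). The synaptic and secreted list had 1 called gene in several settings, where Nppc was lost, and 4 with array weights.

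Same-numbered bicuculline and PK-cleaved libraries did not deviate together (correlations across genes of -0.31, -0.27 and -0.44, and 0 of 3 libraries correlated best with its own number). Bicuculline replicates 1, 2 and 3 correlated best with PK-cleaved replicates 2, 3 and 1, at 0.53, 0.57 and 0.46, a match that no label gives, so the replicate numbers were not taken to pair them. A replicate block gave 56 called genes with all libraries (55 higher, and Dyrk3 lower, with 54 of the 58 among them) and 56 with only the compared groups (55 higher, and Hes5 lower). In that last fit Klf6 missed the threshold (adjusted p = 0.0633) and Atf3 passed it (0.0104, as it did with array weights, 0.0432). With read depth unknown, genes of low signal such as Ptgs2 carry an error that cannot be stated from counts.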
